A study of Mus musculus with 4 samples.

Results

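The clathrin adaptor and endocytosis genes described here are Ap1b1, Ap2a1, Ap2b1, Clta, Dnm2 and Synj1, 6 of the 915 genes with an event in the splicing table of this series. They were chosen by name, and all of their events were taken, which gave 8 of 1223 events. RNA came from whole testes of 4 male C57BL/6 mice at postnatal day 25, an age at which the first wave of spermatogenesis has reached round spermatids. The labels give 2 mice as wild type (WT) and 2 as conditional knockouts deficient in Ptbp2 (cKO), and each mouse gave 1 library. Ptbp2 is the gene of a protein that binds pyrimidine-rich RNA and controls which exons are joined. The labels name neither the allele nor the Cre line behind the conditional knockout, nor the cells in which it acts. Splicing was deposited as ΔPSI, a difference between genotypes in the percentage of transcripts that include a segment, in percentage points, with 1 value per event. The file does not say which genotype was subtracted from which, so each ΔPSI is reported by its sign, without saying which genotype included more. Values per library, read coverage and p-values are lacking, so no ΔPSI below has a replicate error or a test.

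Clathrin-mediated endocytosis takes up membrane proteins in vesicles coated by clathrin, a lattice of heavy and light chains. Adaptor complexes join that lattice to cargo, AP-2 at the plasma membrane and AP-1 at the trans-Golgi network and endosomes. Each has a pair of large subunits built of a trunk, a flexible hinge and an ear that recruits further proteins. Dynamin cuts the neck of the vesicle, and synaptojanin removes phosphates from phosphoinositides so that the coat can come off. In the testis, Sertoli cells take up old cell junctions through tubulobulbar complexes, actin-cuffed membrane tubes that carry clathrin-coated pits and dynamin 2. Several of these genes have exons that were first described in brain. Clathrin light chain A carries an insert in neurons that is encoded by 2 neighbouring exons, and the brain form of the AP-2 alpha subunit has an added stretch in its hinge.

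The alternative segments are shown first because their sequences place each event in its gene. Each was found in the GENCODE M21 annotation (mm10) by its length among the coding exons of the gene, and its bases were read from the annotated transcript. Capitals mark the alternative segment and lower case the 12 bases on either side of it in the spliced transcript.
Ap1b1 21-nt exon: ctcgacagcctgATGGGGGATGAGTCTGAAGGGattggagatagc
Ap2b1 42-nt exon: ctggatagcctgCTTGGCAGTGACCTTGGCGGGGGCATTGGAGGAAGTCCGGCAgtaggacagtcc
Ap2a1 66-nt exon: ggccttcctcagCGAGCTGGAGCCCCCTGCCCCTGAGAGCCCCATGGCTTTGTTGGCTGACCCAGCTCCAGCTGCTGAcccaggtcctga
Clta 54-nt exon: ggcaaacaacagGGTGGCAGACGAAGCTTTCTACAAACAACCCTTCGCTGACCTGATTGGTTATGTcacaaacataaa
Clta 36-nt exon: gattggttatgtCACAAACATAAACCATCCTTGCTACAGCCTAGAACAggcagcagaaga
Dnm2 30-nt exon: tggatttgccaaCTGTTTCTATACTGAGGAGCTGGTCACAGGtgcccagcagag
Dnm2 12-nt exon: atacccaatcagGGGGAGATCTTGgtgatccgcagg
Synj1 9-nt extension: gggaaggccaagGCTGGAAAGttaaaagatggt
In mm10 the exons lie at chr11:5033242-5033262 on the plus strand (Ap1b1), chr11:83364795-83364836 on the plus strand (Ap2b1) and chr7:44903462-44903527 on the minus strand (Ap2a1). The Clta exons lie at chr4:44030215-44030268 and chr4:44031400-44031435 on the plus strand, and the Dnm2 exons at chr9:21487047-21487076 and chr9:21490658-21490669 on the plus strand. The Synj1 extension is the first part of an exon at chr16:90973910-90974075 on the minus strand. All of these segments have a length divisible by 3. They contain no in-frame stop codon in the annotated reading frame, which follows from their being taken from annotated coding exons. None arises when a segment is left out. For the 30-nt Dnm2 exon and the Synj1 extension this was read in transcripts with an incomplete coding sequence. A form with the segment and a form without it are both annotated among the protein-coding transcripts for every one of these segments.

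The large adaptor subunits had the strongest differences of these genes, all of negative sign. Ap1b1, which encodes the beta subunit of AP-1, had a ΔPSI of -50 for a 21-nt cassette exon, that is an exon included or skipped as a whole, at chr11:4933245-4933265 (mm9). Ap2a1, which encodes an alpha subunit of AP-2, also had -50, for a 66-nt cassette exon at chr7:52158832-52158897 (mm9). Ap2b1, which encodes the beta subunit of AP-2, had -43, for a 42-nt cassette exon at chr11:83178297-83178338 (mm9). Of the 741 cassette exons in the table, 20 (2.7%) had an absolute ΔPSI of at least 50 and 40 (5.4%) one of at least 43.

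Both beta subunits carry their alternative exon at the corresponding place. In the annotated transcripts that hold it, it is coding exon 14 in both genes, it begins at a codon boundary, and 7 coding exons follow. Of those, 6 have the same length in both genes, and the exon right after the alternative one has 156 nt in Ap1b1 and 147 nt in Ap2b1. The 12 bases before the alternative exon are identical at 10 positions. The exons themselves add 7 codons in Ap1b1 and 14 codons in Ap2b1, and they start at 69.2% and 69.7% of the coding sequence. Ap1b1 has 1 annotated coding transcript with the exon and 2 without it, and Ap2b1 has 3 with it and 1 without it.

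The Ap2a1 exon adds 22 codons and starts at 72.1% of the coding sequence, after the second base of a codon. It is the size of the added hinge stretch known from the brain form of this subunit. The annotation has 2 coding transcripts with it and 3 without it. It is also the most GC-rich of the segments shown, at 66.7% against a median of 48.8% over 345 cassette exons of the table that could be placed by a single coding exon of their length. Ap2a2, which encodes the other alpha subunit, had no cassette exon in the table, only an alternative 3' splice site with a ΔPSI of 14.

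Clta, which encodes clathrin light chain A, was at the low end of the table although its alternative exons are the neuronal exons of textbooks. The 54-nt cassette exon, at chr4:44043087-44043140 (mm9), had a ΔPSI of -2. The second Clta event takes both exons as a tandem (chr4:44043087-44044307, mm9) and had a ΔPSI of -1. The span of this tandem, 1221 nt, is the distance from the first base of the 54-nt exon to the last base of a 36-nt exon in the annotation, which places the second exon. Together they add 90 nt, or 30 codons (18 and 12), between 65.1% of the coding sequence and its last exon. The annotation has 1 coding transcript with both exons, 1 with the 54-nt exon only, 1 with the 36-nt exon only and 3 with neither. Of all cassette exons in the table, 93.7% had an absolute ΔPSI of at least 2. The events of Clta share the 54-nt exon and are not independent of each other.

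Dnm2, which encodes the widely expressed dynamin, had a pair of very short cassette exons, both negative. The 30-nt exon at chr9:21291491-21291520 (mm9) had a ΔPSI of -6, and the 12-nt exon at chr9:21295102-21295113 (mm9) had -16. Absolute values of at least 6 and 16 were found in 76.8% and 34.7% of the cassette exons. Their starts are 3611 nt apart in the deposited coordinates and in the annotation, which decided between 2 annotated coding exons of 12 nt. The 30-nt exon falls after coding exon 12 at 57.2% of the coding sequence and adds 10 codons, and the 12-nt exon starts at 59.2% and adds 4. The annotation has 1 coding transcript with the 30-nt exon, whose coding sequence is incomplete, and 5 with the 12-nt exon. Only 4 cassette exons of the table had 12 nt, none was shorter, and their ΔPSI ranged from -22 to 18. The mutually exclusive exons for which dynamin genes are known do not appear among the Dnm2 events of the table.

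Synj1, which encodes synaptojanin 1, was the exception in sign, and the only one of these genes with no cassette exon listed. It had an alternative 3' splice site at chr16:90974155-90974320 (mm9) with a ΔPSI of 23. Absolute values of at least 23 were found in 13 of 85 alternative 3' splice sites (15.3%). The deposited interval of 166 nt is the length of the longer annotated exon, and a shorter form of 157 nt ends at the same 5' splice site, so the alternative part is 9 nt. The interval's own length is not divisible by 3, but that of the alternative part is, and it adds 3 codons. It falls after coding exon 11, at 30.6% of the coding sequence in the longest complete annotated form, which is nearer to the start than any of the other segments. Which of the forms a positive value refers to is not given. The change that separates the shorter neuronal protein from the longer form lies near the C-terminus, and no event is listed there.

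**Figure D1:**
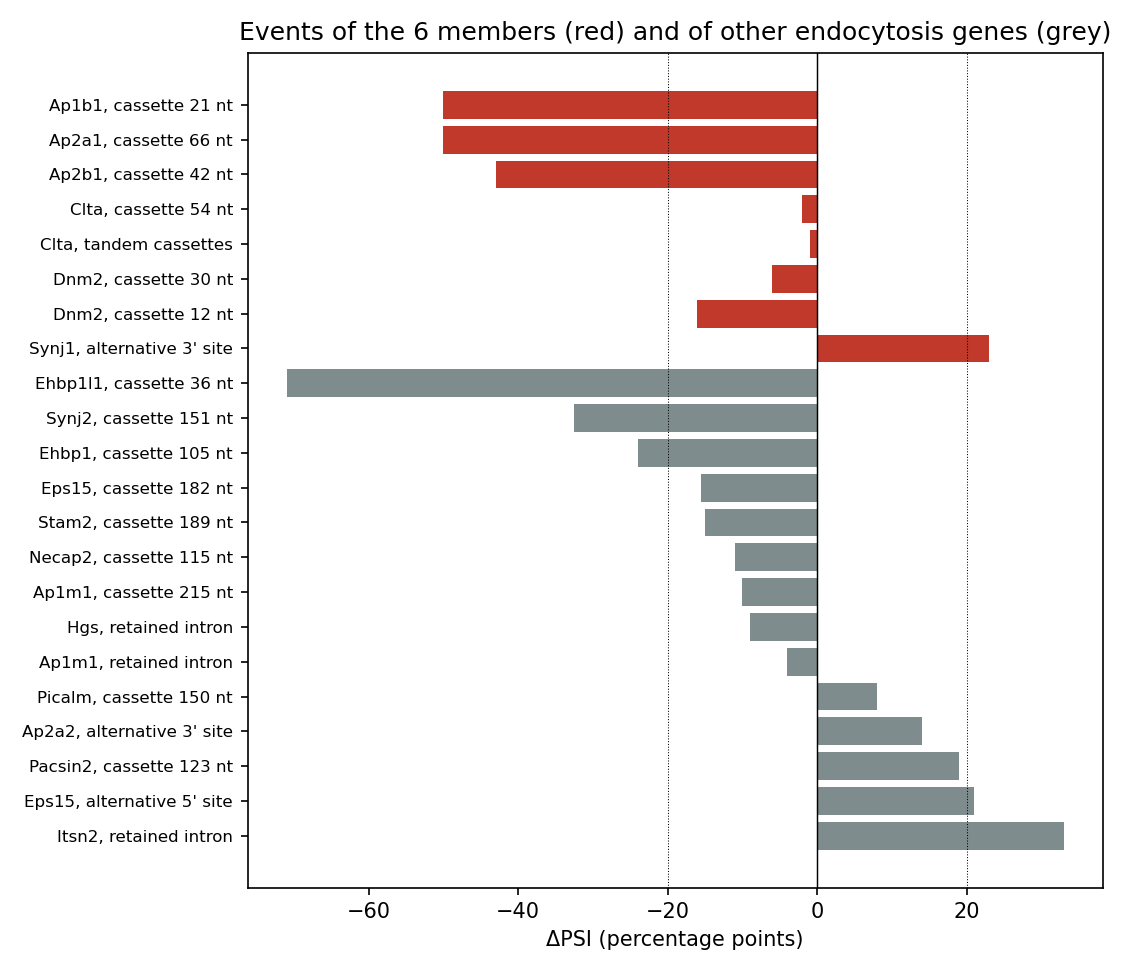
Bars give the deposited ΔPSI in percentage points for the 8 events of the 6 genes (red) and for the 14 events of other endocytosis genes (grey), with dotted lines at -20 and 20. The adaptor subunits stand at -50, -50 and -43, Clta and Dnm2 lie between -16 and -1, and Synj1 is at 23; the bars carry no error because 1 value per event was deposited.

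Set against the whole table, 4 of the 8 events had an absolute ΔPSI of 20 points or more, which 21.0% of all 1223 events had. These are the events of Ap1b1, Ap2a1, Ap2b1 and Synj1, and the second deposited splicing table, which holds events of that size, lists all 4. Their listing there follows from their size and adds no support. A ΔPSI of -20 or less, as in the 3 adaptor genes, was found for 13.3% of all events, and one of 20 or more, as in Synj1, for 7.69%. Negative values were found for 7 of the 8 events, against 59.4% of all events. Events of the same gene are not independent. By its largest event, a gene was negative in 5 of the 6 cases, against 59.0% of all 915 genes with an event. Of the 6 cassette exons, 3 reached 20 points and 6 were negative, against 22.3% and 52.0% of all cassette exons. The median ΔPSI was -29.5 over these 6 exons and -1 over all 741. The genes were named with earlier results of these data known, so these shares describe them and support no further statement.

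**Figure D2:**
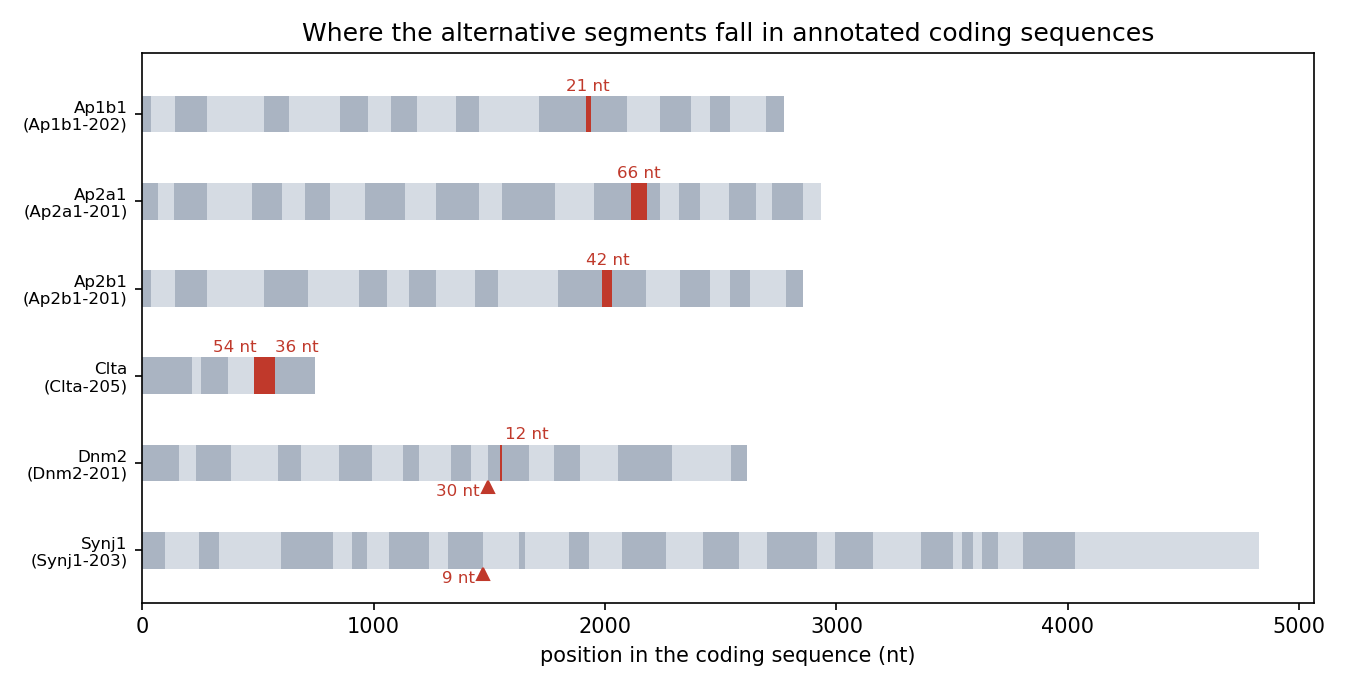
Annotated coding sequences of the 6 genes are drawn to scale in nt, with coding exons in alternating greys, alternative exons in red and segments absent from the transcript drawn marked by triangles. The segments of Ap1b1 (69.2%), Ap2b1 (69.7%), Ap2a1 (72.1%) and Clta (65.1% and 72.3%) start in the last part of the coding sequence. Those of Dnm2 start at 57.2% and 59.2%, and that of Synj1 starts at 30.6%. Over 345 cassette exons placed by a single coding exon of their length, the median start was 50.5%, with quartiles of 21.1% and 72.5%.

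The cassette exons of these genes are short and keep the reading frame, and exons of that kind were mostly negative in the whole table. All 6 are divisible by 3 in length, against 55.7% of all cassette exons, and the longest has 66 nt, against a median of 100 nt. The table holds 122 cassette exons of up to 66 nt that are divisible by 3, and 73.8% of them were negative. Without the 6 exons described here, 84 of 116 (72.4%) were negative and 29.3% reached 20 points. Among the other 619 cassette exons 47.7% were negative and 20.7% reached 20 points. Of the 31 cassette exons at -43 or below, 10 were short and divisible by 3, a kind that makes up 16.5% of all cassette exons. Ap1b1, Ap2a1 and Ap2b1 are 3 of those 10 by construction. The cut of -43 is the ΔPSI of Ap2b1 and the cap of 66 nt the length of the Ap2a1 exon, so this count supports no statement about them.

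**Figure D3:**
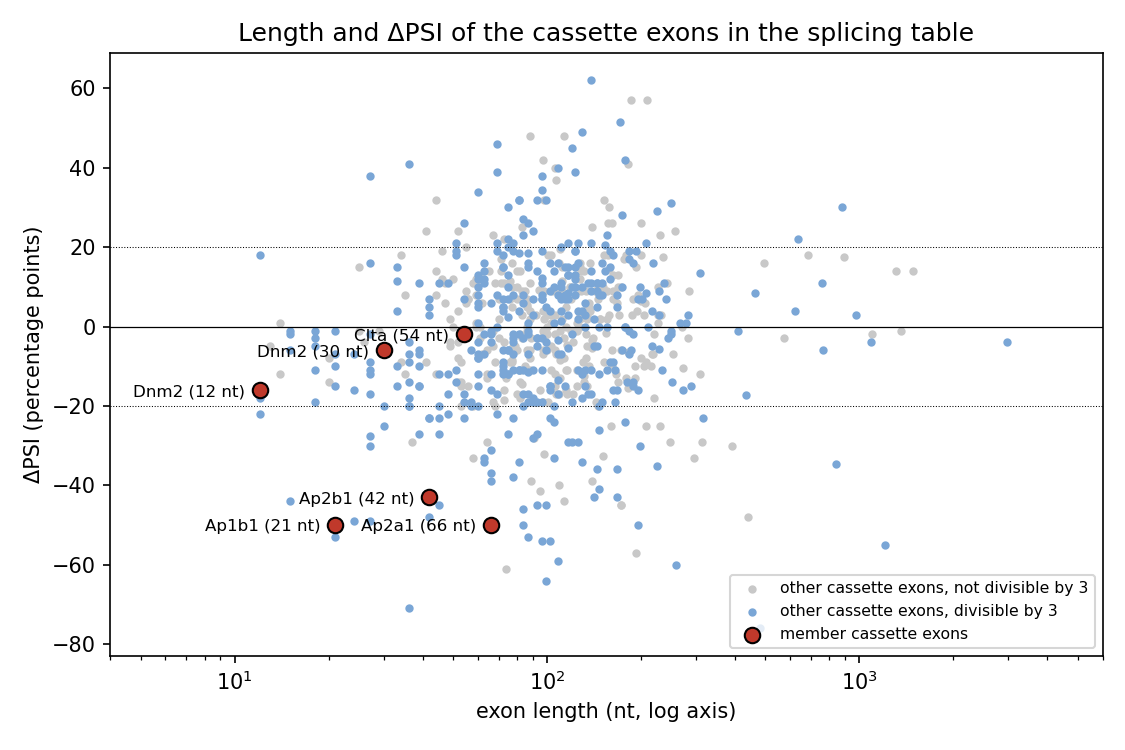
Each point is 1 of the 741 cassette exons, with its length in nt on a log axis and its deposited ΔPSI in percentage points. Blue points have a length divisible by 3 and grey points do not, dotted lines mark -20 and 20, and the 6 exons of Ap1b1, Ap2a1, Ap2b1, Clta and Dnm2 (red) all lie at 66 nt or less and below 0.

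The closest counterparts in other genes were sought among cassette exons within 10 nt of the length and with the same remainder after division by 3, by the difference in ΔPSI. For Ap1b1 they were exons of 24 nt in Fhod1, a formin gene that acts on actin, and of 27 nt in Snx14, a sorting nexin gene, both at -49. For Ap2b1 they were an exon of 45 nt in Mllt4, which encodes the junction protein afadin, at -45, and one of 42 nt in Dpf2 at -48. For Ap2a1 the nearest were exons of 66 nt in Anxa7, an annexin gene, at -39 and in Tbc1d5, of retromer traffic, at -37, so none of the 67 exons compared with it came within 10 points. The 12-nt Dnm2 exon was closest to exons of 21 nt in Exoc1, an exocyst subunit gene, at -15 and of 12 nt in Sidt2 at -18. For Clta they were exons of 63 nt in Esyt2 at -2 and of 54 nt in Myo9a at -1. Each comparison rests on 1 value per exon.

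The rest of the pathway was read from a list of 101 further genes of clathrin coats, adaptors, scission, phosphoinositide turnover, uncoating and endosomes. An event was listed for 12 of them and reached 20 points in 5, against 23.7% of all 915 genes with an event. By its largest event a gene was negative in 7 cases and positive in 5, and over all 915 genes 59.0% were negative. Ehbp1l1, which encodes a protein of recycling endosomes, had -71 for an exon of 36 nt, and its relative Ehbp1 had -24. Synj2, the second synaptojanin gene, had -32.5 for a cassette exon of 151 nt, opposite in sign to Synj1 but of another type of event. Eps15, which encodes an early scaffold of the coated pit, had 21 for an alternative 5' splice site and -15.5 for a cassette exon. Itsn2, an intersectin scaffold gene, had 33 for a retained intron. Of the 10 other AP-1 and AP-2 subunit genes only 2 had an event, Ap1m1 at -10 and -4 and Ap2a2 at 14, all below 20 points in size. The rest of those 10 genes have no deposited ΔPSI, so nothing can be said of their splicing. The clathrin genes Cltb and Cltc, the AP-3 and GGA adaptor genes and the uncoating genes had no event listed. Nothing can be said of the splicing of these genes either. Outside the list and chosen after its values were seen, Synrg, which encodes an AP-1 binding protein, had -20 for an exon of 36 nt, with -11 and -9 for its other events. Ap4e1, an adaptor subunit gene also looked up outside the list, had -10 for a cassette exon of 205 nt.

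None of the 6 genes is in the expression table, under these symbols or under synonyms, so no RNA level can be given for them. That table holds 988 genes with RPKM, read counts divided by the gene's length and by the library's total, in each library, selected by the authors for a difference, and genes outside it were not analysed here. Ptbp2, the targeted gene, had 65.7 RPKM in WT library 1, 66.6 in WT library 2, 111 in labelled cKO library 1 and 98.2 in labelled cKO library 2. It was higher in both libraries labelled cKO, and an RPKM over the whole gene does not tell whether a part is deleted. Among the splicing events, Ptbp2 had a cassette exon of 34 nt with a ΔPSI of -9. Whether that exon is the part targeted is not given. In the authors' deposited table Ptbp2 has 0.66 as its log2 fold change and 0.0044 as its adjusted p. Its difference on the log2(RPKM + 1) scale was 0.65 ± 0.27 (SE), and limma gave it an adjusted p of 0.0684 after Benjamini-Hochberg (BH) correction. Without labelled cKO library 1 or 2 this p was 0.00369 and 0.00192 in limma, and without WT library 1 or 2 it was 0.476 and 0.466.

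Of the 101 further pathway genes 1 is in the expression table. Sh3kbp1, which encodes an adaptor protein of receptor endocytosis, had 2.60 RPKM in WT library 1, 2.89 RPKM in WT library 2, 1.36 RPKM in labelled cKO library 1 and 1.35 RPKM in labelled cKO library 2. Both libraries labelled cKO lay below both WT libraries, without overlap. The difference was -0.67 ± 0.26 (SE) on the log2(RPKM + 1) scale, and its BH-adjusted p over all 988 genes in limma was 0.0627. In that fit 83.9% of genes passed as lower and 1.92% as higher. Thus 0 of 1 gene passed in limma, and 0 had an unadjusted limma p under 0.05. In the authors' deposited table Sh3kbp1 has -1.02 as its log2 fold change and 0.0066 as its adjusted p. With a pseudocount of 0.1 in place of 1, it passed at an adjusted p of 0.0431 in limma, and over all the alternative settings this p ranged from 0.00328 to 0.494. It also passed without labelled cKO library 1 or 2 (0.00328 and 0.00382 in limma) and not without WT library 1 or 2.

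The RNA of cell type markers differed between the labels, and its part in the ΔPSI values was not tested. Of all 988 genes in the expression table, 83.9% passed as lower and 1.92% as higher in limma, so a fall alone does not set a listed marker apart. Of 21 spermatid genes, 18 are in that table and all 18 fell in limma. Their summed level was 1820 and 2480 RPKM in the WT libraries against 241 and 55.7 RPKM in the libraries labelled cKO. The summed level of the 3 of 10 macrophage genes listed was 29.0 and 29.9 against 54.7 and 69.0 RPKM, and all 3 rose in limma. Inha, the 1 of 10 Sertoli genes listed, was at 70.2 and 71.7 against 99.6 and 138 RPKM and did not pass. Of the other lists, 2 of 11 spermatocyte genes are in the table and 1 fell, 1 of 7 Leydig genes is in it and rose, 1 of 6 myoid genes is in it and fell, and none of 9 spermatogonia or 5 endothelial genes is in it. The 18 spermatid genes and the myoid gene also fell in limma without any 1 of the 4 libraries, while without WT library 1 or 2 the macrophage, Leydig and spermatocyte lists had 0 genes that passed. The Leydig call was also lost with a pseudocount of 0.1, among genes above the median RPKM and with the replicate block. Of the macrophage genes, 2 passed with a pseudocount of 0.1, 0 with the replicate block, and 0 of the 1 above the median RPKM. Without labelled cKO library 1 or 2, Inha and the second spermatocyte gene passed as well. No listed marker is at 0 in any library. Fewer cells of a type and less RNA per cell cannot be told apart in RNA from whole testes. A change of splicing within cells and a change in the mix of cells cannot be told apart either.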

How the data were processed

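RNA-seq of whole testes from 2 WT and 2 labelled cKO mice was used as deposited. For each library the authors deposited RPKM for 988 selected genes, with their own log2 fold change and adjusted p-value, per the file headers. For splicing the authors deposited 1 ΔPSI score per event. The aligner, the splicing caller and the filters used are not stated, that is, not given in the sources used here. Depth is unknown because neither read totals, gene lengths nor event coverage accompany the values. The submitters' processing notes name mm9 and mm10 without a role. Splicing coordinates were taken as mm9 and counted from 1: among 669 cassette exons whose gene is in GENCODE M21, 641 match an exon there by length and 17 by mm10 coordinates. They were not converted, and rows without a gene name took the name above. Exon bases come from the GENCODE M21 transcripts, in the longest complete coding sequence holding the exon where there is one.

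For RPKM, log2(RPKM + 1) of all 988 genes was fitted with limma (version 3.58.1, under R 4.3.3), with Benjamini-Hochberg (BH) adjustment, a threshold of 0.05 and no block, after a test on simulated data. A fold change on this scale understates that of low genes. The authors selected these genes on the same libraries, so this is not independent evidence. An exact two-sided permutation test of 2 against 2 mice cannot give a p below 0.333. Everything else used Python 3.11.15 with pandas 2.3.3 and matplotlib 3.10.9. Named were all 6 genes and their events, Ptbp2, every gene of the endocytosis list in the expression table or with an event of 20 points or more, and the 2 closest cassette exons for each of the genes whose largest event is a cassette. Genes of that list with smaller events were named after their values were seen. The 6 genes and all lists were chosen with earlier results of these data known. Alternatives varied the pseudocount, low-value filter, replicate block, libraries, ΔPSI threshold and choice of events.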

Additional observations from a re-analysis of the deposited data

How the results depend on the processing

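The count of pathway genes passing in limma was 0 in the fit reported and 1 with a pseudocount of 0.1, and ranged from 0 to 1 when each library was left out in turn: 1 without labelled cKO library 1 or 2 (adjusted p of Sh3kbp1 0.00328 and 0.00382) and 0 without WT library 1 or 2 (0.435 and 0.494). The lone library of a group was then taken to vary like the others. With the replicate block 0 passed (adjusted p 0.246). The numbers share no stated origin. Deviations from the group means correlated at -0.331 over genes between WT 1 and cKO 1. With 2 libraries per group, crossing the numbers only reverses the sign of this correlation, so it cannot decide whether libraries are paired. With the numbers crossed, a choice made after seeing the data, 0 passed. Sh3kbp1 is not among genes above the median mean RPKM, so that filter gave no count. Events past the threshold numbered 4 at 20 points, 5 at 10 and 3 at 30, and stayed at 4 with only the largest event per gene or only rows that carry a name. The negative share was 87.5% of all events, 75.0% of those of 20 points or more and 83.3% of the largest per gene. The planned search for pyrimidine motifs before the exons was not run, because no genome sequence was used here. Without coverage per event, how depth limits a ΔPSI, and whether values as small as those of Clta differ from 0, cannot be said.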
